A study of Mus musculus with 14 samples.

Results

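The FGF receptors and ligands described here are 10 genes of the 55427 listed in the deposited TPM table (a level corrected for gene length and depth): the receptors Fgfr1, Fgfr2, Fgfr3, Fgfr4 and Fgfrl1 and the ligands Fgf1, Fgf2, Fgf7, Fgf18 and Fgf21. They were taken by gene symbol, and their counts by Ensembl identifier. Bulk RNA-seq covered 14 clonal cultures of tdTomato+ skeletal cells from the bone marrow of mouse femurs, each started by 1 cell. All mice carried Fgfr3-creER, a tamoxifen-dependent Cre recombinase under control of Fgfr3 in a transgene, and the reporter R26R(tdTomato/+), and all received tamoxifen at P21. The 5 Fgfr3-WT (P23) clones had no floxed Trp53 and were isolated on postnatal day 23, the 5 Fgfr3-p53 cKO (P28) clones were Trp53 fl/fl and isolated on day 28, and the 4 Fgfr3-p53 cKO (P4M) clones had the same genotype and came from mice of 4 months.

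Each clone stands for 1 cell in which the Fgfr3-driven Cre had acted and which then grew in culture, to passage 8 in the WT and P28 groups and to passage 6 to 8 in the P4M group. The study describes a longer time in culture for the WT clones than for the cKO clones. The labels do not tie clones to mice, so the spread between clones may include several animals or only 1, and p-values measure that spread. All WT clones carry library submission number 1303 and all cKO clones 2963, so genotype and submission cannot be told apart, whereas P4M and P28 share a submission. All WT clones were isolated at P23 and no cKO clone was, so genotype and age at isolation cannot be told apart either. Total counts lay between 25688946 and 52857424 per clone. Trp53 itself was 49.9 to 68.1 CPM (counts scaled to a common depth by the TMM method, so comparable between clones within a gene) in the WT clones and 1.72 to 2.84 CPM in the 9 cKO clones. Of the labelled cell type's markers, 7 of 7 stromal genes were measured, with a summed level of 115.2 to 1537 TPM in WT, 3894 to 7626 TPM in P28 and 3021 to 9339 TPM in P4M clones. Col1a2 alone held 0.04 to 1213 TPM in WT, 3435 to 6584 TPM in P28 and 2181 to 9089 TPM in P4M clones. Against WT 0 of the 7 were called in P28, where 38.9% of all genes tested were called. In P4M, where 45.9% were called, only Twist1 rose (log2 fold change 0.67, adjusted p = 0.0291, edgeR). Only Thy1 fell there (-7.59, adjusted p = 0.0338), to no more than 0.02 TPM. The haematopoietic markers Ptprc, Adgre1, Tyrobp and Itgam and the endothelial markers Pecam1, Cdh5, Emcn and Tek were at or near 0 in every clone, at no more than 0.320 TPM. Kdr, the fifth endothelial marker, was at 0.122 ± 0.251 CPM (SD, n = 5) in WT, 1.63 ± 1.45 CPM (SD, n = 5) in P28 and 6.33 ± 4.47 CPM (SD, n = 4) in P4M clones, and rose against WT with log2 fold changes of 3.61 in P28 (adjusted p = 0.0190, edgeR) and 5.56 in P4M (adjusted p = 0.00224). The summed endothelial level was 0.0300 to 0.250, 0.150 to 1.31 and 0.750 to 3.26 TPM in WT, P28 and P4M clones, and its part in the results was not tested. Lyz2, Cd68 and Csf1r brought the summed level of the haematopoietic markers to 22.4 to 164.6 TPM in WT, 5.27 to 34.5 TPM in P28 and 6.80 to 11.9 TPM in P4M clones, and their part in the results was not tested. The reticular and adipocyte markers summed to 35.9 to 313.1 TPM in WT, 342.6 to 734.5 TPM in P28 and 92.7 to 319.4 TPM in P4M clones.

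FGF ligands are secreted proteins that bind receptor tyrosine kinases together with heparan sulphate, and the receptors then signal mainly through the RAS-ERK cascade. In the skeleton, Fgfr1 and Fgfr2 are known from osteoprogenitors and osteoblasts, Fgfr3 from chondrocytes, where it restrains growth, and Fgf18 is the ligand best known to act on Fgfr3 in the growth plate. Fgfrl1 binds FGFs but lacks a kinase domain. Fgf1 and Fgf2 act close to the cells that make them, Fgf7 is a mesenchymal ligand that signals mainly to an epithelial splice form of Fgfr2, and Fgf21 is a circulating metabolic hormone.

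Of the 10 genes, 9 had enough counts to be tested, and Fgfr4 did not. The receptor genes Fgfr3 and Fgfrl1 fell in both groups of cKO clones, Fgf18 rose in P28 and Fgfr1 rose in P4M. Against WT, 3 of the 9 were called at an FDR of 0.05 in P28 (1 higher, 2 lower), where 38.9% of all 17358 genes tested were called, 19.2% higher and 19.7% lower. Likewise, 3 of the 9 were called in P4M against WT (1 higher, 2 lower), where 45.9% of all genes were called, 22.3% higher and 23.6% lower. The shares of members called were thus no larger than the background in either comparison. Between P4M and P28, 2 members were called, both lower in P4M (Fgfr2 and Fgfrl1), beside 7.22% of all genes, 3.34% higher and 3.88% lower. The median log2 fold change of the 9 members was -0.04 in P28 against WT (all genes -0.02), 0.49 in P4M against WT (all genes -0.06) and -0.42 in P4M against P28 (all genes -0.01). Without P28 clones 4 and 5, which separated from P28 clones 1 to 3 in several members, the counts against WT were the same, and between P4M and P28 there was 1 member higher and 1 lower.

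**Figure D1:**
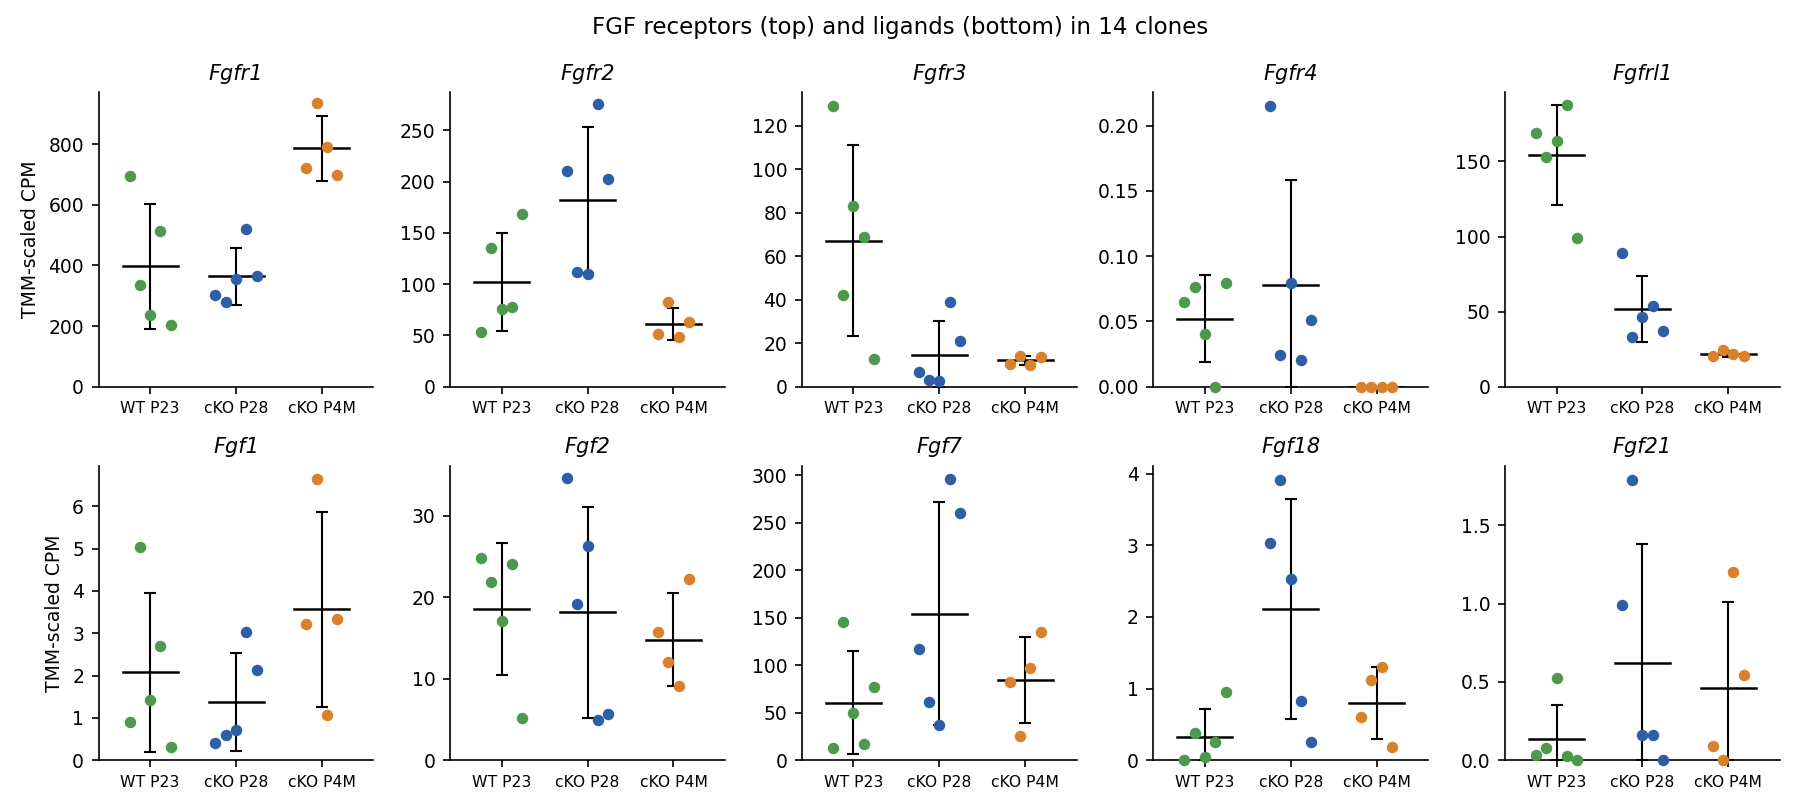
TMM-scaled CPM (vertical axes, linear, each gene with its own scale) of the 5 receptor and 5 ligand genes in each clone of Fgfr3-WT (P23), Fgfr3-p53 cKO (P28) and Fgfr3-p53 cKO (P4M). Points are clones in order of clone number, horizontal bars are means and error bars are 1 SD, drawn no lower than 0. The Fgfrl1 points of the 3 groups do not overlap, whereas the Fgfr3 points of P28 clones 4 and 5 and of WT clone 5 lie within the range of the other group.

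Fgfrl1 (ENSMUSG00000008090) is on chromosome 5 of GRCm38 (mm10), from 108692382 to 108706924 on the plus strand in GENCODE M21, and shares no exonic base with another gene. It held 169.0, 153.2, 163.5, 187.6 and 99.2 CPM in WT clones 1 to 5. In P28 clones 1 to 5 it held 88.8, 33.0, 46.4, 53.6 and 37.4 CPM. In P4M clones 1 to 4 it held 20.4, 24.2, 21.6 and 20.6 CPM. Every P28 clone lay below every WT clone, and every P4M clone below every P28 clone. Fgfrl1 had a log2 difference of -1.58 ± 0.249 (SE) in P28 against WT (adjusted p = 0.000425, edgeR) and of -2.83 ± 0.285 (SE) in P4M against WT (adjusted p = 1.97e-05). It was also lower in P4M than in P28, with a difference of -1.26 ± 0.266 (SE, adjusted p = 0.0163). The P4M against P28 call was lost without P4M clone 1 (adjusted p = 0.0537) or P4M clone 4 (adjusted p = 0.0502). Among the 9 members tested, the CPM ranges of the groups did not overlap for 1 in P28 against WT (Fgfrl1), 2 in P4M against WT (Fgfr1 and Fgfrl1) and 3 in P4M against P28 (Fgfr1, Fgfr2 and Fgfrl1), beside 24.5%, 33.6% and 19.0% of all genes.

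Because Fgfrl1 and Fgfr3 were the receptors lower in both cKO groups, the RefSeq promoter windows of these genes (GRCm38.p6, 250 bases before to 50 after a start) are shown, with each GGGCGG motif, the GC box, in capitals on either strand (read as CCGCCC on the other).
Fgfrl1 chr5:108693979-108694278, plus strand: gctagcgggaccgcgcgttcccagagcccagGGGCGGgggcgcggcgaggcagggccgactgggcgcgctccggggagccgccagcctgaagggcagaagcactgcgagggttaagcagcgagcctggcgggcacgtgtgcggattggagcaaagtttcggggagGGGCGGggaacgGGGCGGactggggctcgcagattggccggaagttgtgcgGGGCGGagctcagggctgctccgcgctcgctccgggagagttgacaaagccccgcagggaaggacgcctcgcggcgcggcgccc
Fgfr3 chr5:33721474-33721773, plus strand: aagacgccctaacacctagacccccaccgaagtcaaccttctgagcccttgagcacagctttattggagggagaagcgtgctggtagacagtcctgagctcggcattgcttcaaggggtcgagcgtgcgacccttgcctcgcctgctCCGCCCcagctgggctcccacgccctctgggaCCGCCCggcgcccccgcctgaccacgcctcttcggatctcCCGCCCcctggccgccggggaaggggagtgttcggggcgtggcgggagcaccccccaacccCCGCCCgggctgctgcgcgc

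Both windows held 4 GC boxes, and the GC content was 73.7% for Fgfrl1 and 69.7% for Fgfr3. These values were not particular to the 2 genes. The Fgfr4 window also held 4 GC boxes, Fgf21 3, Fgf2 and Fgf18 1 each, and Fgfr2 and Fgf7 0. The Fgf18 window had a GC content of 78.7%. Over all 32851 windows of 300 bases in the table, 35.7% held a GC box. A further Fgfr3 window, chr5:33722056-33722355, held 2 overlapping GC boxes. In all, 9 windows were read for 8 of the 10 genes, with none for Fgfr1 or Fgf1. The p53 half-site was in none of these windows and in 8.36% of all windows, and TATAAA was in the Fgf21 window alone among the 9 and in 13.6% of all. These matches describe letters in short windows and say nothing of binding.

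Fgfr3 (ENSMUSG00000054252; chromosome 5, 33721674 to 33737068, plus strand), the gene whose regulatory sequence drives the Cre, held 129.0, 42.2, 82.9, 68.6 and 12.54 CPM in WT clones 1 to 5. In P28 clones 1 to 5 it held 6.60, 2.87, 2.54, 39.0 and 20.8 CPM. In P4M clones 1 to 4 it held 10.4, 14.2, 10.01 and 13.6 CPM. WT clone 5 was the lowest WT clone and lay inside the P4M range and below P28 clones 4 and 5, so the cKO ranges overlapped the WT range. Fgfr3 fell by 2.22 on the log2 scale in P28 against WT (SE 0.743, adjusted p = 0.0300, edgeR) and by 2.47 in P4M against WT (SE 0.817, adjusted p = 0.0246), with mean CPM of 67.1 ± 43.8 (SD, n = 5) in WT, 14.4 ± 15.7 (SD, n = 5) in P28 and 12.1 ± 2.14 (SD, n = 4) in P4M. P4M and P28 differed by -0.25 on that scale (SE 0.758, adjusted p = 0.872). Each of the 2 calls against WT was lost in 5 of 14 fits that left out 1 clone, among them the fit without WT clone 1 (adjusted p = 0.0665 in P28 and 0.0508 in P4M). The other clones whose absence ended a call were WT clone 3 (adjusted p = 0.0515) and P28 clones 1 (0.0663), 2 (0.0560) and 3 (0.0535) for P28, and P4M clones 1 (0.0636), 2 (0.0503), 3 (0.0602) and 4 (0.0528) for P4M. Without P28 clones 4 and 5 together the P28 log2 fold change against WT was -4.09 (adjusted p = 0.00188). Of the exonic bases of Fgfr3, 13.9% lie under an exon of the antisense gene G630022F23Rik, which was itself low, at 0.826 ± 0.450 CPM (SD, n = 5) in WT and below that in both cKO groups.

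The Fgfr3-driven recombinase has its own feature in the tables, named iCre.ERT2. It held 7.36, 5.47, 8.25, 4.38 and 4.23 CPM in WT clones 1 to 5, 2.53 to 3.66 CPM in P28 clones and 3.55 to 3.90 CPM in P4M clones. All WT clones lay above all cKO clones in CPM. In TPM the ranges overlapped, with 2.92 and 3.36 in WT clones 4 and 5 and 3.27 and 3.51 in P28 clones 4 and 5. It fell by 0.94 on the log2 scale in P28 against WT (SE 0.232, adjusted p = 0.00648, edgeR) and by 0.66 in P4M against WT (SE 0.247, adjusted p = 0.0428). For P4M this did not pass in 15 of 22 alternatives. They were the fits without 11 of the 14 clones in turn (adjusted p up to 0.103, all but WT clone 4, WT clone 5 and P28 clone 2), no filter on low counts (0.123), no scaling (0.0543), only the groups compared (0.0859) and the fit without P28 clones 4 and 5 (0.0563). P28 clones 4 and 5, with the highest Fgfr3 of their group, held 3.44 and 3.66 CPM of the recombinase, beside 3.31, 2.53 and 2.54 CPM in P28 clones 1 to 3. The tdTomato reporter was at 2075 CPM or more in each of the 14 clones and was not called in any comparison, with adjusted p of 0.185, 0.122 and 0.876 in P28 against WT, P4M against WT and P4M against P28.

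**Figure D2:**
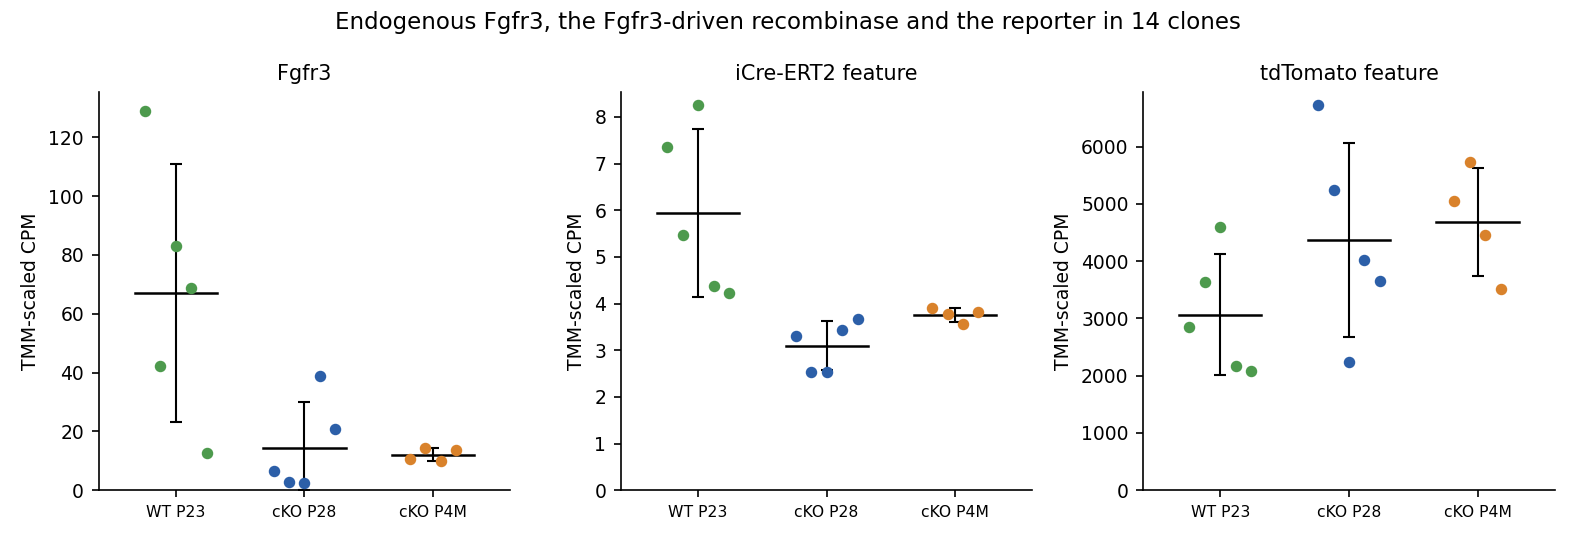
TMM-scaled CPM (vertical axes, linear, each panel with its own scale) of Fgfr3, of the iCre-ERT2 feature and of the tdTomato feature in the 14 clones by group. Points are clones in order of clone number, bars are means and error bars are 1 SD, drawn no lower than 0. The recombinase lies between 2.53 and 8.25 CPM in all clones, and its 5 WT points lie above the 9 cKO points.

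Fgfr3 is also a cartilage gene, and the chondrocyte markers moved in the same comparisons. Of 12 such markers, 11 were tested. In P28 against WT 1 was higher and 5 were lower, where 19.2% of all genes were higher and 19.7% lower. In P4M against WT 9 were lower, where 23.6% of all genes were. Without P28 clones 4 and 5 the P28 counts were 1 higher and 4 lower. Sox9, the chondrogenic transcription factor, was lower in both, with log2 fold changes of -2.16 (adjusted p = 0.00457, edgeR) and -3.39 (adjusted p = 0.000536). The summed level of these markers was 570.0 to 7007 TPM in WT, 534.1 to 1100 TPM in P28 and 23.4 to 333.4 TPM in P4M clones. WT clone 5, with the lowest Fgfr3 of the WT group, also had the lowest summed chondrocyte level of that group (570.0 TPM), but WT clone 1, with the highest Fgfr3, had the next lowest (773.0 TPM). P28 clone 1, with the highest summed level of its group, held 6.60 CPM of Fgfr3, less than P28 clones 4 and 5. The part of these genes in the Fgfr3 result was not tested. In bulk RNA, fewer cells of a type and less RNA per cell cannot be told apart. Of the osteoblast markers 3 of 10 rose in P28 and 8 of 10 in P4M, where 19.2% and 22.3% of all genes rose, and Spp1 fell in both. The P28 count was 1 of 10 without P28 clones 4 and 5.

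The profile of Fgfr3 over the 14 clones, as log2 CPM centred on its mean (SD 1.65), was compared with those of 9656 genes by the root mean square difference, for which the median gene gave 1.72. The closest were Irx2 (0.928), a homeobox transcription factor, P3h2 (0.990), a collagen prolyl hydroxylase, Rbpj-ps3 (0.995), a pseudogene whose reads can be shared with its parent gene, Syn3 (0.999), a synapsin, and Chst11 (1.05), a chondroitin sulphotransferase. Their mean CPM was highest in WT and lower in both cKO groups, as with P3h2 at 149.8, 14.7 and 22.6 CPM in WT, P28 and P4M. That order follows from their choice by likeness to Fgfr3 and is no separate result. The iCre.ERT2 feature, driven by the Fgfr3 transgene, stood at 1.27. It was too low to be among the genes compared, which had a mean log2 CPM of at least 3.

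Fgfr1 (ENSMUSG00000031565; chromosome 8, 25513654 to 25575718, plus strand) was the receptor with the highest TPM in both cKO groups. It held 695.5, 336.0, 235.4, 515.1 and 204.8 CPM in WT clones 1 to 5. In P28 clones 1 to 5 it held 302.5, 280.1, 355.7, 519.4 and 364.2 CPM. In P4M clones 1 to 4 it held 722.5, 935.2, 790.1 and 698.2 CPM. All 4 P4M clones lay above all WT and all P28 clones in CPM. The lowest P4M clone exceeded WT clone 1 by less than the SD of either group. In TPM, P4M clone 4 (292.5) lay below WT clone 1 (293.1). Fgfr1 rose in P4M against WT by 0.98 on the log2 scale (SE 0.319, adjusted p = 0.0222, edgeR), a call lost without P4M clone 2 (adjusted p = 0.0580). Its value in P28 against WT was -0.12 (SE 0.301, adjusted p = 0.771). The P4M against P28 log2 fold change of 1.11 (SE 0.319) had an adjusted p of 0.0511. That value passed the threshold in 8 of 22 alternatives, DESeq2 among them (adjusted p = 0.0128).

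Fgfr2 (ENSMUSG00000030849; chromosome 7, 130162451 to 133123350, minus strand) was lower in P4M than in P28. WT clones 1 to 5 held 53.3, 135.0, 75.4, 77.4 and 168.0 CPM. P28 clones 1 to 5 held 210.7, 111.4, 109.8, 275.9 and 202.9 CPM. P4M clones 1 to 4 held 51.3, 82.6, 48.3 and 63.5 CPM. Every P4M clone was below every P28 clone, and the WT range overlapped both. Fgfr2 fell by 1.57 on the log2 scale in P4M against P28 (SE 0.370, adjusted p = 0.0258, edgeR). The call was lost without P28 clone 1 (adjusted p = 0.0622) or 4 (0.0549), without P4M clone 1 (0.0824), 3 (0.0650) or 4 (0.0637), and without P28 clones 4 and 5 together (0.0801). Against WT, Fgfr2 differed by 0.84 in P28 (SE 0.337, adjusted p = 0.0634) and -0.73 in P4M (SE 0.360, adjusted p = 0.114). The P28 difference passed in 5 of 22 alternatives, DESeq2 (adjusted p = 0.0420), no scaling (0.0364) and the fits without WT clone 5 (0.0202), P28 clone 2 (0.0487) or P28 clone 3 (0.0486), with adjusted p up to 0.377 over the others. The P4M difference passed without WT clone 1 (adjusted p = 0.0491).

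Fgfr4 (ENSMUSG00000005320; chromosome 13, 55152640 to 55168759, plus strand), a receptor best known from liver, was near the detection limit. Its counts were 2, 2, 1, 0 and 2 in WT clones 1 to 5, 10, 1, 4, 1 and 2 in P28 clones 1 to 5, and 0 in each of the 4 P4M clones. A count of 0 allows up to 3 counts, equal to 0.0563 to 0.0692 CPM for P4M and 0.0853 to 0.121 CPM for WT libraries. P28 clones 1 and 3 were the only clones above that limit, and no difference was detectable at this depth.

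**Figure D3:**
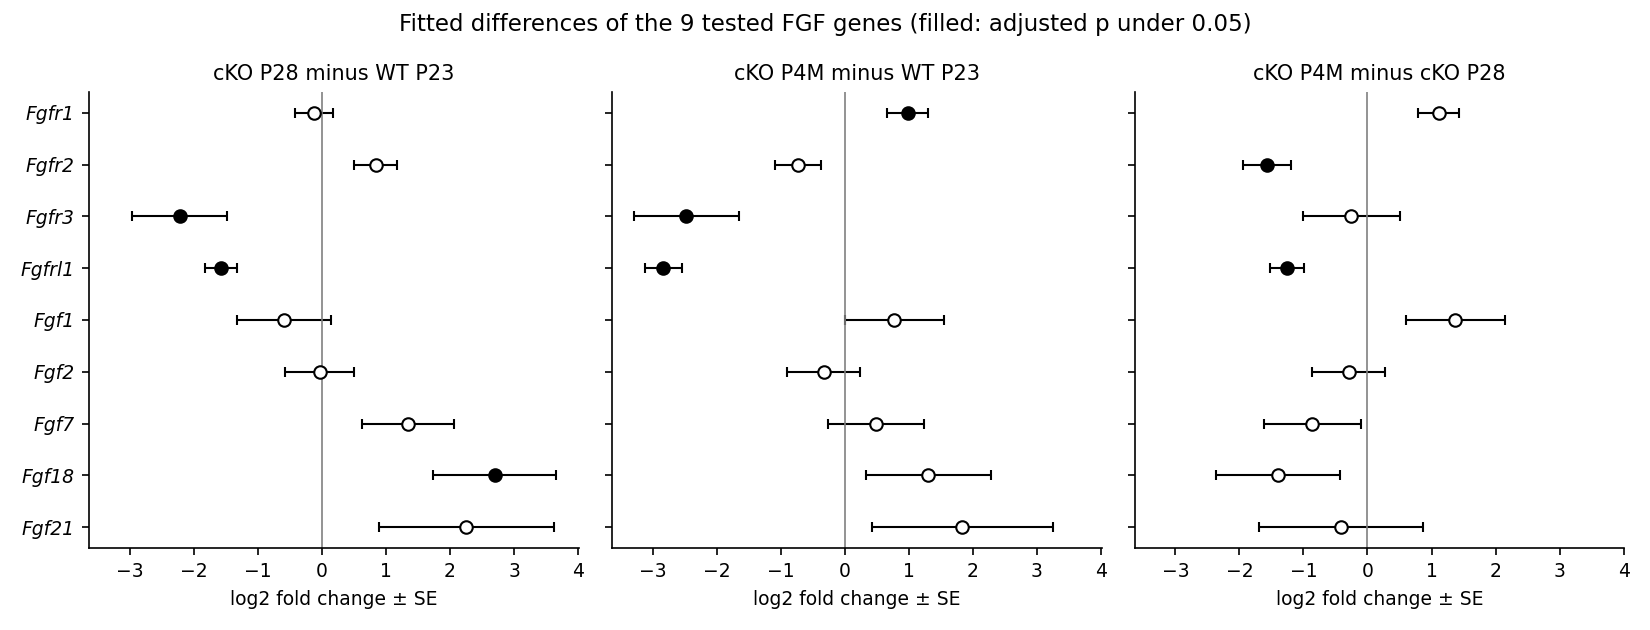
Fitted log2 fold changes (horizontal axis, same scale in the 3 panels) of the 9 tested genes in P28 against WT, P4M against WT and P4M against P28, with 1 SE as error bars. Filled points passed an FDR of 0.05 over all genes tested. Fgfrl1 is filled and left of 0 in all 3 panels, and Fgfr3 in the 2 panels against WT, with SEs of 0.743 and 0.817.

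On the TPM scale, which allows genes to be compared, the makeup of the signalling receptors was described without a test. Fgfr1 made up 47.9% to 78.0% of the summed TPM of Fgfr1 to Fgfr4 in the WT clones, 52.7% to 71.1% in the P28 clones and 88.0% to 90.8% in the P4M clones. The Fgfr2 share was 7.43% to 49.0% in WT, 28.3% to 45.8% in P28 and 7.78% to 10.3% in P4M. Fgfr3 made up 10.96% ± 6.37 (SD, n = 5) in WT, from 3.04% in clone 5 to 19.6% in clone 3. It was 2.09% ± 1.65 (SD, n = 5) in P28, where clones 4 and 5 held 4.21% and 3.47%, and 1.48% ± 0.167 (SD, n = 4) in P4M. The SD of each of these 3 shares was smallest in the P4M clones. The summed receptor TPM was 165.8 to 375.7 in WT, 191.6 to 434.3 in P28 and 328.9 to 421.2 in P4M clones, so the totals overlapped.

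The level of Fgfrl1 relative to the summed TPM of Fgfr1 to Fgfr4 was 0.464, 0.695, 0.952, 0.645 and 0.608 in WT clones 1 to 5. It was 0.367, 0.175, 0.215, 0.131 and 0.1304 in P28 clones 1 to 5 and 0.0617, 0.0558, 0.0568 and 0.0606 in P4M clones 1 to 4. These ratios follow from the levels above and were not tested on their own.

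**Figure D4:**
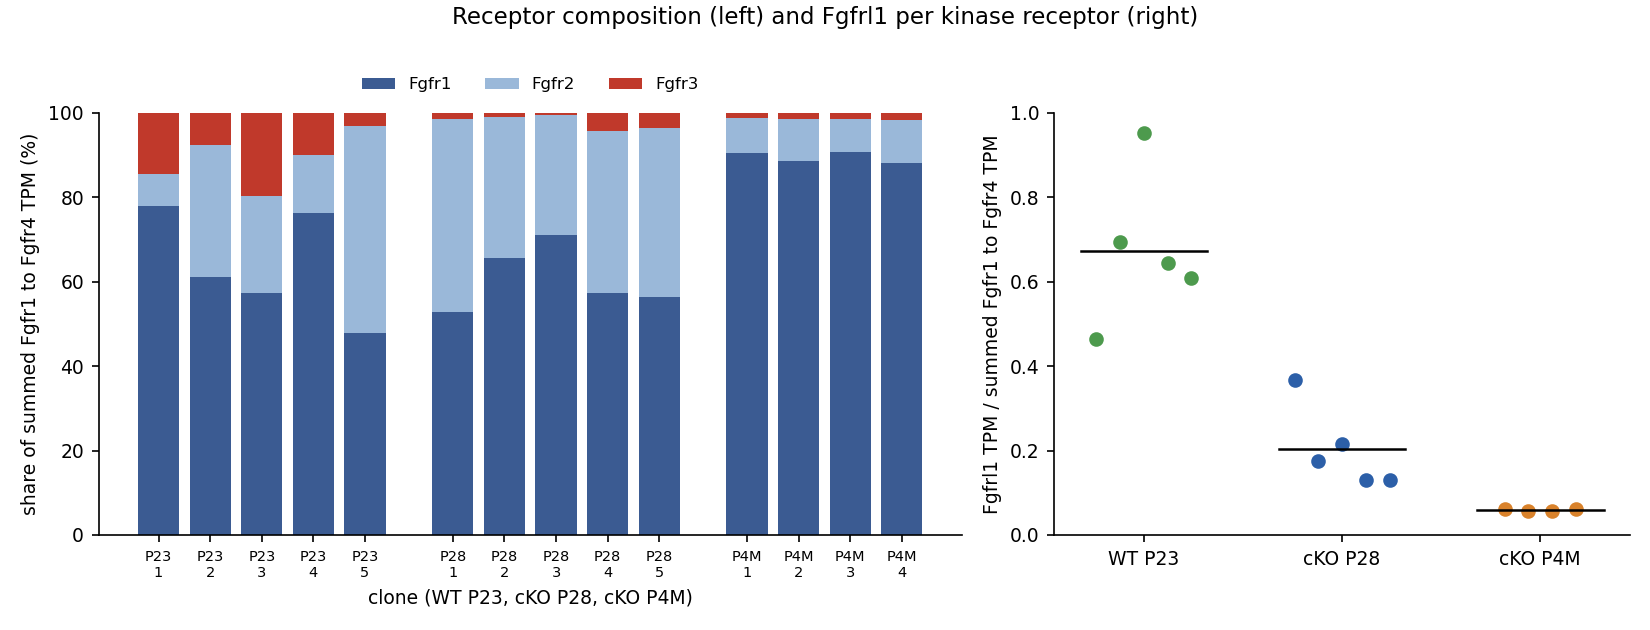
Left, stacked bars of the share of Fgfr1, Fgfr2 and Fgfr3 in the summed TPM of Fgfr1 to Fgfr4 (vertical axis, %), 1 bar a clone. The Fgfr4 share, at most 0.0413%, is too thin to see. Right, Fgfrl1 TPM divided by the same sum in each clone, with the group mean as a line, which runs from 0.673 in WT to 0.204 in P28 and 0.0587 in P4M.

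Fgf7 (ENSMUSG00000027208; chromosome 2, 126034658 to 126091185, plus strand) was the most abundant of the 5 ligands, with 57.4% to 98.2% of their summed TPM in the 14 clones. It held 13.2, 145.1, 49.97, 17.4 and 77.0 CPM in WT clones 1 to 5. In P28 clones 1 to 5 it held 116.6, 61.4, 36.5, 295.8 and 260.4 CPM. In P4M clones 1 to 4 it held 82.5, 25.3, 96.6 and 134.8 CPM. P28 clones 4 and 5 were the highest of all 14 clones, and the other P28 clones lay within the WT range. On the log2 scale Fgf7 differed by 1.35 in P28 against WT (SE 0.716, adjusted p = 0.152, edgeR), 0.49 in P4M against WT (SE 0.744, adjusted p = 0.621) and -0.86 in P4M against P28 (SE 0.760, adjusted p = 0.509). Without P28 clones 4 and 5 the last value turned to 0.28 (adjusted p = 0.856).

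Fgf18 (ENSMUSG00000057967; chromosome 11, 33117430 to 33147400, minus strand) had few reads in WT clones, with counts of 0, 10, 1, 9 and 24 in clones 1 to 5. The counts were 141, 164, 127, 41 and 10 in P28 clones 1 to 5 and 26, 49, 66 and 10 in P4M clones 1 to 4. P28 clones 1 to 3 lay above all other clones, and P28 clones 4 and 5 lay within the range of the WT and P4M clones. Fgf18 rose by 2.70 on the log2 scale in P28 against WT (SE 0.964, adjusted p = 0.0402, edgeR), a call lost when any of 8 of the 14 clones was left out. These were WT clones 1 (adjusted p = 0.0521), 2 (0.0666), 3 (0.0756) and 4 (0.0778), P28 clones 1 (0.0737), 2 (0.0874) and 3 (0.0678), and P4M clone 1 (0.0536). In P4M against WT it was 1.30 (SE 0.977, adjusted p = 0.294), and in P4M against P28 -1.40 (SE 0.968, adjusted p = 0.387).

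Fgf2 (ENSMUSG00000037225; chromosome 3, 37348346 to 37410108, plus strand) held 24.7, 21.8, 17.1, 24.1 and 5.14 CPM in WT clones 1 to 5, 34.7, 19.2, 26.3, 4.89 and 5.61 CPM in P28 clones 1 to 5, and 15.8, 12.1, 9.08 and 22.2 CPM in P4M clones 1 to 4. P28 clones 4 and 5 and WT clone 5 were the lowest, and the group ranges overlapped. The log2 fold changes were -0.04 (SE 0.539, adjusted p = 0.965), -0.33 (SE 0.575, adjusted p = 0.669) and -0.29 (SE 0.574, adjusted p = 0.794) in P28 against WT, P4M against WT and P4M against P28, and the first changed sign in 8 of 22 alternatives. Of its exonic bases 13.2% overlap other genes, chiefly Nudt6 on the other strand, which had a log2 fold change of 1.30 in P4M against WT (adjusted p = 0.00741) at 2.23 ± 1.24 CPM (SD, n = 5) in WT.

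Fgf1 (ENSMUSG00000036585; chromosome 18, 38838673 to 38929472, minus strand) was low, at 0.316 to 5.05 CPM in WT, 0.409 to 3.04 CPM in P28 and 1.07 to 6.64 CPM in P4M clones, with medians of 1.42, 0.715 and 3.28 CPM. Again P28 clones 4 and 5 (3.04 and 2.13 CPM) were the highest of their group, the other 3 lying at or below 0.715 CPM. No comparison was called, with adjusted p of 0.551, 0.432 and 0.282 in P28 against WT, P4M against WT and P4M against P28. Fgf21 (ENSMUSG00000030827; chromosome 7, 45613886 to 45615490, minus strand) had counts of 1, 2, 13, 1 and 0 in WT clones 1 to 5, 46, 75, 8, 8 and 0 in P28 clones 1 to 5, and 4, 0, 61 and 29 in P4M clones 1 to 4. A clone at 0 occurred in each group, and no comparison was called (adjusted p = 0.209, 0.305 and 0.876).

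By median TPM, the order in WT clones was Fgfrl1 (151.1), Fgfr1 (130.7), Fgfr2 (38.2), Fgf7 (35.4), Fgfr3 (23.2), Fgf2 (5.27), Fgf1 (1.01), Fgf18 (0.350), Fgf21 (0.0700) and Fgfr4 (0.0300), and the range of each overlapped that of its neighbour. In P28 clones it was Fgfr1 (171.9), Fgfr2 (122.1), Fgf7 (100.2), Fgfrl1 (51.9), Fgf2 (5.38), Fgf18 (5.02), Fgfr3 (3.79), Fgf1 (0.580), Fgf21 (0.380) and Fgfr4 (0.0300), where the only neighbours with separate ranges were Fgfrl1 and Fgf2. In P4M clones it was Fgfr1 (310.9), Fgf7 (66.7), Fgfr2 (31.0), Fgfrl1 (20.3), Fgfr3 (5.36), Fgf2 (3.69), Fgf1 (2.28), Fgf18 (1.55), Fgf21 (0.655) and Fgfr4 (0). There, Fgfr1 stood apart from Fgf7, Fgfr2 from Fgfrl1 and Fgfrl1 from Fgfr3.

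The other genes of FGF signalling were read from 4 lists. Of 17 other FGF ligands 7 were tested, with 1 higher and 1 lower in P28 and 2 higher and 3 lower in P4M against WT. The shares over all genes were 19.2% higher and 19.7% lower in P28, and 22.3% and 23.6% in P4M. The P28 counts were 1 higher and 0 lower without P28 clones 4 and 5. Fgf9, a ligand made by skeletal and joint tissue, rose in P4M with a log2 fold change of 4.79 (adjusted p = 0.00681) from 0.161 ± 0.259 CPM (SD, n = 5) in WT to 4.63 ± 3.29 CPM (SD, n = 4). Its P28 value was 2.38 (adjusted p = 0.112), and -0.22 without P28 clones 4 and 5. Fgf11 rose in P28 by 3.38 (adjusted p = 0.00136) and in P4M by 2.90 (adjusted p = 0.00343), at no more than 27 counts in any clone, whereas Fgf13 and Fgf14 fell in P4M, with log2 fold changes of -3.83 (adjusted p = 0.0166) and -3.98 (adjusted p = 0.0132). Fgf11, Fgf13 and Fgf14 encode members of the intracellular, non-secreted branch of the family.

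Of 14 co-receptors and extracellular partners 11 were tested, with 3 higher and 1 lower in P28 and 2 higher and 3 lower in P4M against WT. Over all genes 19.2% were higher and 19.7% lower in P28, and 22.3% and 23.6% in P4M. The P28 counts of this list were 5 higher and 0 lower without P28 clones 4 and 5. Ncam1, an adhesion molecule that can bind FGF receptors, rose in both, by 1.09 (adjusted p = 0.0149) and 1.47 (adjusted p = 0.00310) on the log2 scale. Sulf1, which removes sulphate groups from heparan sulphate, fell in P4M, with log2 fold changes of -3.62 against WT (adjusted p = 0.00801) and -4.36 against P28 (adjusted p = 0.0224). Fgfbp3, an FGF carrier protein, fell in P28 by 1.55 (adjusted p = 0.0220, but 0.0623 without WT clone 2 and 0.0924 without P28 clones 4 and 5), and Flrt1 fell in P4M by 2.14 (adjusted p = 0.0326, lost without WT clone 2 or 4 or P4M clone 1, 2 or 3, with adjusted p up to 0.0867). The co-receptors for hormone-like FGFs, Kl and Klb, were not tested, with at most 3 and 13 counts in any clone.

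All 20 adaptor and early signal genes were tested, with 3 higher and 4 lower in P28 and 2 higher and 5 lower in P4M, and median log2 fold changes of -0.01 and -0.02. Over all genes 19.2% were higher and 19.7% lower in P28, and 22.3% and 23.6% in P4M. Without P28 clones 4 and 5 the P28 counts were 1 higher, Nras, and 0 lower. Nras, a RAS GTPase, rose in P28 by 1.19 (adjusted p = 3.20e-05) and in P4M by 1.19 (adjusted p = 3.29e-05). Hras, also a RAS GTPase, fell in both, by 0.53 (adjusted p = 0.0278) and 0.54 (adjusted p = 0.0280). Frs3, a docking protein of FGF receptors, fell by 0.91 (adjusted p = 0.0217) and 1.69 (adjusted p = 0.000895), and Braf by 0.78 (adjusted p = 0.00887) and 1.23 (adjusted p = 0.000785). Sos2, an exchange factor that activates RAS, fell in P28, with a log2 fold change of -0.9957 (adjusted p = 0.0243, but 0.0510 without P28 clone 4), and its P4M value was -0.56 (adjusted p = 0.194). Without P28 clones 4 and 5 the P28 calls of Frs3 (adjusted p = 0.101), Braf (adjusted p = 0.0628) and Sos2 (adjusted p = 0.123) were lost. The P28 call of Hras was lost there too.

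In the reported fit, the feedback and target genes of the ERK pathway were the list with calls against WT in a single direction. Without WT clone 2, and likewise without WT clone 5, 1 gene of this list was called lower in P4M against WT. Of 12 tested, 7 rose in P28 and 9 in P4M against WT and none fell, where 19.2% and 22.3% of all genes rose, and the median log2 fold changes were 1.07 and 1.82. Without P28 clones 4 and 5 the P28 count was 5. Spry1, an inhibitor of receptor tyrosine kinase signalling, was at 0.535 ± 0.590 CPM (SD, n = 5) in WT, 22.9 ± 21.1 CPM (SD, n = 5) in P28 and 136.1 ± 84.7 CPM (SD, n = 4) in P4M. Etv4, an ETS transcription factor induced by FGF signals, was at 1.10 ± 0.625, 22.4 ± 7.42 and 59.9 ± 8.82 CPM, with log2 fold changes of 4.32 (adjusted p = 1.01e-05) and 5.75 (adjusted p = 2.76e-06). Il17rd, an inhibitor of FGF signalling, rose by 4.62 (adjusted p = 0.000284) and 3.40 (adjusted p = 0.00124), and Dusp4, an ERK phosphatase, by 1.94 (adjusted p = 0.00440) and 3.53 (adjusted p = 0.000142). Spry2, Etv1 and Etv5, of the same list, were called in neither comparison, with adjusted p from 0.0837 to 0.907. Their log2 fold changes were below 0 in both, at -0.20, -0.37 and -0.52 in P28 and -0.07, -1.24 and -0.92 in P4M. Dusp6, also of this list, had -0.93 in P28 (adjusted p = 0.108, edgeR) and rose in P4M by 1.42 (adjusted p = 0.0224, edgeR).

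**Figure D5:**
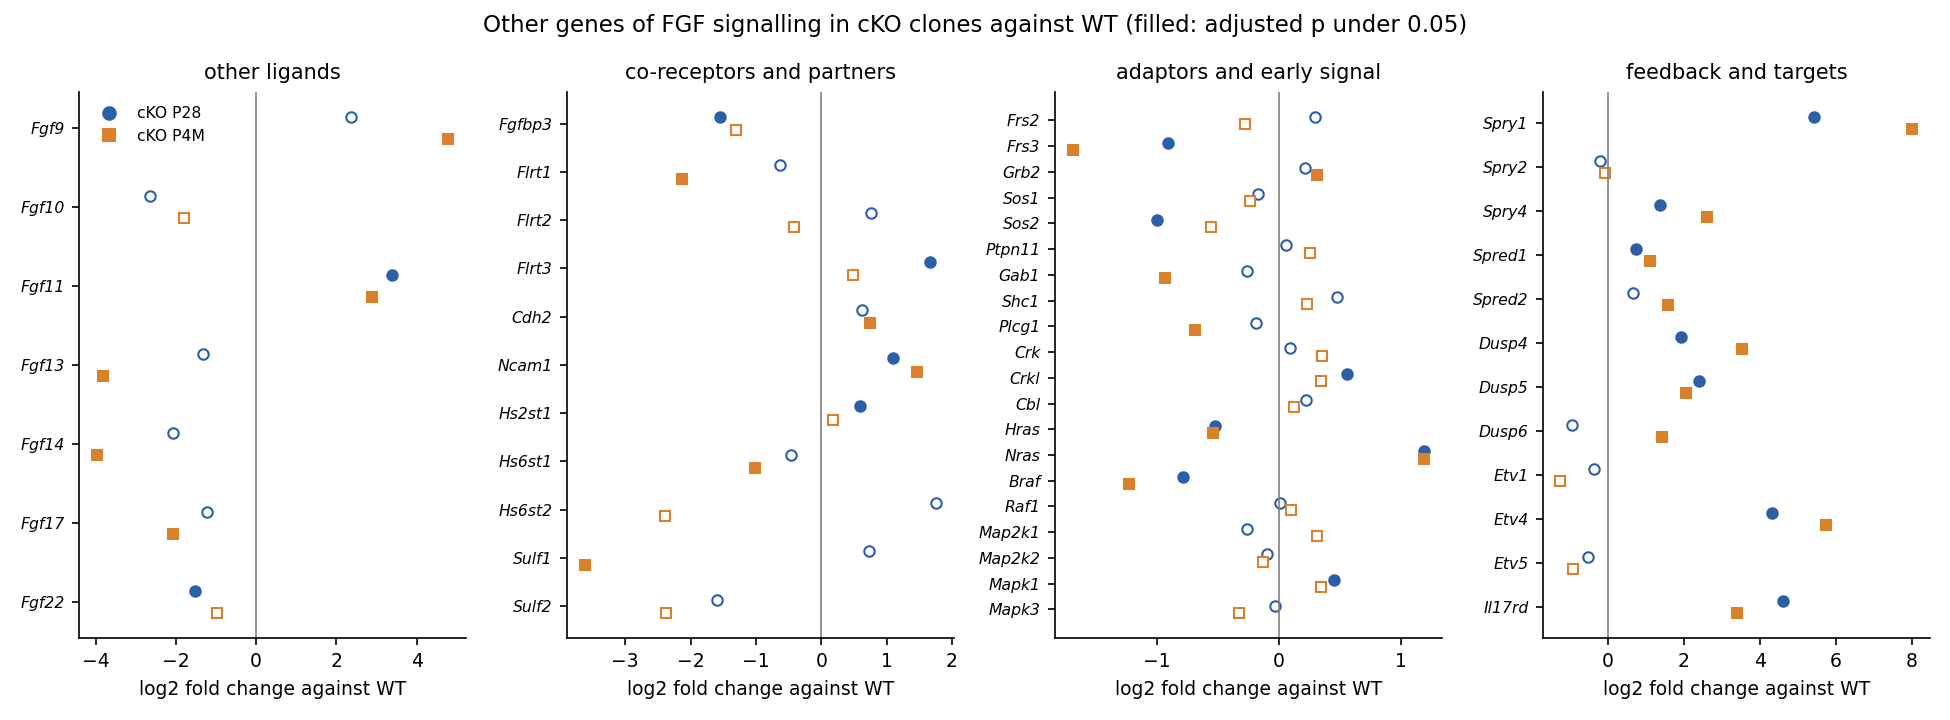
Log2 fold changes against WT (horizontal axes, each panel with its own scale) of the tested genes of 4 lists in P28 clones (circles) and P4M clones (squares). Filled symbols passed an FDR of 0.05 over all genes tested. In the panel of feedback and target genes all filled symbols lie right of 0, 7 for P28 and 9 for P4M, while the adaptor panel holds filled symbols on both sides.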

How the data were processed

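The authors read SMART-Seq v4 libraries of 14 clones, used TopHat with Bowtie2 to align them to mm10, took counts of unambiguous reads from HTSeq, and tested with DESeq2. Versions are not given in the sources used here. Whether the counting used strand is not given either, so the antisense overlaps of Fgfr3 and Fgf2 are stated beside these genes. Of the exonic bases of Fgfr1, 1.66% overlap the antisense gene Gm16159. For Fgfr2, 3.04% overlap Ctbp2, which is on the same strand. The deposited count table holds raw counts of 30503 genes, all equal to the deposited expected counts, which were estimated by a program not named in the sources used here. Whether HTSeq or that program gave the counts tested here is therefore not known. The deposited TPM values were normalized by the authors for length and depth. The FPKM, depth-normalized and rlog tables were not used.

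Counts were tested in R 4.3.3 with edgeR 4.0.16 (filterByExpr over 3 groups, TMM, robust quasi-likelihood fit of all 14 clones, 3 contrasts, Benjamini-Hochberg adjustment over 17358 genes, FDR 0.05). No batch term could be fitted. The fit was tested on simulated data. CPM are TMM-scaled. Log2 CPM for profile likeness used a prior count of 2 and genes with a mean of at least 3. Alternatives were RLE scaling, no scaling, DESeq2 1.42.0, no filter, a mean of at least 10 counts, the 2 groups compared alone, the expected counts, each clone left out in turn and P28 clones 4 and 5 left out together. The last was chosen after the data were seen. The expected counts equal the counts tested, so the agreement of that fit was fixed in advance. The FGF genes and all lists were chosen with earlier results of these data known, and the lists therefore support no direction. Named were all 10 members, from each pathway list up to 4 called genes with the largest mean absolute log2 fold change against WT, and the 5 genes closest to Fgfr3. From the list of adaptors and early signal genes 1 gene is not reported here, and the counts and the naming leave it out. Hras, Spry2, Etv1, Etv5, Dusp6, Kl, Klb, Nudt6, G630022F23Rik, Gm16159, Ctbp2, the transgene features and the cell type markers fall outside this rule and were named after their values were seen. Positions are from GENCODE M21 and promoter sequences from RefSeq. Pairs of clones of 1 group differed far beyond sampling noise, with a chi-square per degree of freedom of at least 60.3, so none was counted as a repeat. Limits from 3 counts cover counting error only, since reads without molecular identifiers are not independent molecules. Figures were drawn with matplotlib 3.10.9 in Python 3.11.15.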

Additional observations from a re-analysis of the deposited data

Results flagged for a closer look

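The 30 sets of clones (10 genes in 3 groups) were examined for a clone far from the others, except Fgfr4 in P4M, which was at 0 throughout. Of the sets examined, 1 stood out, where chance gives about 1 in 20. This was WT clone 3 for Fgf21, at 0.526 CPM (13 counts), with a gap to the next clone of 0.854 of the range of the group. The differences of the P28 and P4M clones from the same WT clones were unequal for 2 members by the test of P4M against P28. With the WT clones shared, this is the comparison already given above. For Fgfr2 P4M minus P28 was -1.57 on the log2 scale (adjusted p = 0.0258, edgeR), and for Fgfrl1 it was -1.26 (adjusted p = 0.0163, edgeR). All 4 P4M clones lay below all 5 P28 clones in both genes. The P4M clones also differed from the P28 clones in the age of the mice and in passage.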

How the results depend on the processing

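The number of genes called stayed within 1.5 times of the reported one in both comparisons with WT, at 5056 to 7492 in P28 and 6512 to 8578 in P4M over 22 alternatives. In P4M against P28, where 1254 genes were called, DESeq2 called 2607 and the fit of only these groups 3051, and fits that left out 1 clone called 480 to 2132, the highest without WT clone 1 and the lowest without P4M clone 1. The counts without P28 clone 1, 3 or 4 were 524, 496 and 799, and without P4M clone 2, 3 or 4 they were 524, 809 and 543. The cause was not tested. Fgfrl1 kept its direction and its call against WT in all 22 alternatives in both groups. The fit of expected counts, among the 22, reused the reported counts and was no separate check. Fgfr3 lost its call in P28 without a filter on low counts (adjusted p = 0.0615) and with only the groups compared (adjusted p = 0.0648), and in P4M without a filter (adjusted p = 0.0530). Fgf18 in P28 lost it without a filter (adjusted p = 0.0520) and with only the groups compared (adjusted p = 0.0624).

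Values that changed sign were all of members or list genes not called. Fgfr1 in P28 against WT ranged from -0.30 to 0.15 over the fits that left out 1 clone, Fgfr3 in P4M against P28 from -0.52 to 0.57, Fgf1 in P28 against WT from -1.14 to 0.0348, Fgf2 in P28 against WT from -0.43 to 0.18 and in P4M against P28 from -0.55 to 0.0947, and Fgf21 in P4M against P28 from -1.4998 to 0.53. Fgf2 in P28 against WT was 0.0138 without a filter, 0.0617 without scaling and 0.50 without P28 clones 4 and 5. Without those clones Fgfr3 was 1.63 and Fgf7 0.28 in P4M against P28, and Fgf9 was -0.22 in P28 against WT. The Fgfr3 share over the clones left out ranged from 8.80% to 12.95% in WT, 1.57% to 2.49% in P28 and 1.40% to 1.54% in P4M. No paired analysis was possible because the clones carry no replicate number shared between groups. Depth limits Fgfr4, Fgf18 and Fgf21, which had at most 10, 164 and 75 counts in any clone.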
